A study of Mus musculus with 3 samples.

Results

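Type I interferon-stimulated genes were followed through the cell types of mouse bone marrow. The set holds 38 genes chosen by name as common targets of type I interferon, and 37 of them were found by symbol among the 32285 gene rows of the count tables. Mx1 was not analysed here. Their levels were compared within fixed marker gates, that is, among cells picked by the same marker genes in every library. A change in the share of cells that a gate holds thus does not enter the comparison within it. The mix of subtypes inside a gate and RNA of other cells can still differ between libraries.

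Marrow was taken from the leg bones (femur and tibia) of C57BL/6J mice and enriched on a Ficoll density gradient before droplet single-cell RNA sequencing. There were 3 groups with 1 library each. MI-E is labelled as MI with EMPA, an agent given only by that abbreviation. MI stands for myocardial infarction, and Sham is the group it is set against. The description of the surgery, a ligation of the left anterior descending coronary artery under isoflurane, has the same wording for every library, so it does not tell what the Sham mice received. The number, age and sex of the animals and the time after surgery are likewise not given in the labels. All groups share the strain, the tissue and the preparation.

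After the cell filter and removal of likely doublets, 19547 MI-E, 20499 MI and 21508 Sham cells remained, with medians of 2572, 3120 and 2151 UMIs (counted molecules) per cell. Of these, 14526 MI-E, 15265 MI and 15039 Sham cells met exactly 1 of 22 gates, and 17 gates with at least 100 cells in every library were compared. Between 116 and 122 cell barcodes occurred in both libraries of a pair. Levels are UMIs per 1000000 UMIs of the gate (CPM) with exact Poisson 95% intervals, and ratios carry exact conditional 95% intervals. These cover counting error only. With 1 library per group no difference was tested, the spread between animals is unknown, and every value describes these libraries. All comparisons share libraries, and MI-E and MI share the same Sham library.

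Type I interferons are secreted by cells that sense viral or misplaced nucleic acid. They bind the receptor chains Ifnar1 and Ifnar2, whose kinases Jak1 and Tyk2 activate a transcription factor that contains Stat2 and Irf9. It binds the interferon-stimulated response element (ISRE) and switches on a broad antiviral programme, of which these genes are well-known targets. Mouse haematopoietic cells keep a basal level of this programme without infection, known as tonic interferon signalling.

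The set fell into 7 groups by role, and some of its genes lie side by side in the mouse genome. In GENCODE M21 (GRCm38), the 5 IFIT genes span chr19:34550694-34650009 and the 4 PYHIN genes span chr1:173723427-173942672. The promoter windows below are from RefSeq on GRCm38.p6 and run from 250 bases before to 50 bases after each annotated start. A promoter was found for 29 of the 37 genes. The ISRE core was searched on both strands as a pair of GAAA separated by any 2 bases, which reads as a pair of TTTC on the opposite strand, and overlapping matches were kept. It was present in 17 of 29 members (58.6%), against 3.99% of 27025 genes with a promoter in the same table. A match is a description of the letters, not evidence of binding. The stretches shown are those of some members with a match, printed on the strand of the gene with the matches in capitals. Ifi27l2a is among the genes for which no promoter was found, so it was not searched for the core.
Isg15, chr4:156200855-156200916, minus strand: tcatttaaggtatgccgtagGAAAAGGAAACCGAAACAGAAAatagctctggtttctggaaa
Ifit3, chr19:34583353-34583436, plus strand: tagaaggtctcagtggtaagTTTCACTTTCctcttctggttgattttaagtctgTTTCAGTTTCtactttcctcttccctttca
Ifit3b, chr19:34607749-34607832, plus strand: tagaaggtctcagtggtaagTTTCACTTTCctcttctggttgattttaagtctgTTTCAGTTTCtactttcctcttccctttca
Ifit1, chr19:34640765-34640833, plus strand: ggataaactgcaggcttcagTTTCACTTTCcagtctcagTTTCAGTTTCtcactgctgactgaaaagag
Oas1a, chr5:120907526-120907565, minus strand: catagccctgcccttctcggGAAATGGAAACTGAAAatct
Rsad2, chr12:26456543-26456592, minus strand: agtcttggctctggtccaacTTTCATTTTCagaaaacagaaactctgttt
Bst2, chr8:71537567-71537622, minus strand: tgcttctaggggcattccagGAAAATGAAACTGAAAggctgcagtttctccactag
Ifi203, chr1:173942498-173942547, minus strand: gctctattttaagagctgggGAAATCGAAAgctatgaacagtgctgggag
Ifi207, chr1:173741821-173741870, minus strand: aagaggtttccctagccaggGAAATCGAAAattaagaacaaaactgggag
Ifi211, chr1:173913054-173913103, minus strand: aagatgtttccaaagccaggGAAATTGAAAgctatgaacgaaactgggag
The stretch of 84 bases is the same in Ifit3 and Ifit3b. In Isg15, Oas1a and Bst2 the matches overlap and form a run of capitals.

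Among the 17 gates with enough cells for a comparison, the summed level of the members stood lowest against Sham in classical monocyte-like cells. This gate (Csf1r, Ccr2 and F13a1 without cell cycle, macrophage, patrolling monocyte or granule genes) held 2323 MI-E, 3057 MI and 1982 Sham cells. Monocyte genes not used in the gate, among them Lyz2, Fn1 and Ctss, summed to 22868 CPM in MI-E, 23915 in MI and 32927 in Sham cells. Summed over the 37 members, the level was 1292 CPM in MI-E, 1258 CPM in MI and 6826 CPM in Sham cells. The sum was 5.28-fold lower in MI-E than in Sham (95% interval 5.18 to 5.39) and 5.42-fold lower in MI than in Sham (5.33 to 5.52). MI-E and MI lay within 0.04 of each other on the log2 scale.

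Of the 37 members, 30 passed the minimum of 10 CPM on average and 30 UMIs over the libraries in this gate, and 7 did not. Among these 30, 28 were at least 2-fold lower in MI-E than in Sham, where 1.66% of the 7414 genes tested were. In MI, also 28 were at least 2-fold lower than in Sham, where 3.24% of all genes were. The median log2 ratio of the 30 members was −1.87 for MI-E and −1.88 for MI, beside 0.09 and 0.02 for all genes tested. For every one of the 30 the interval of the ratio lay below 1 in both comparisons. The share of all genes with such an interval is not given, and the intervals cover counting error only. The minimum can let in a gene through its Sham level alone, so these counts describe the genes that passed. Without the minimum, all 37 members had a lower level in MI-E and in MI than in Sham.

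**Figure D1:**
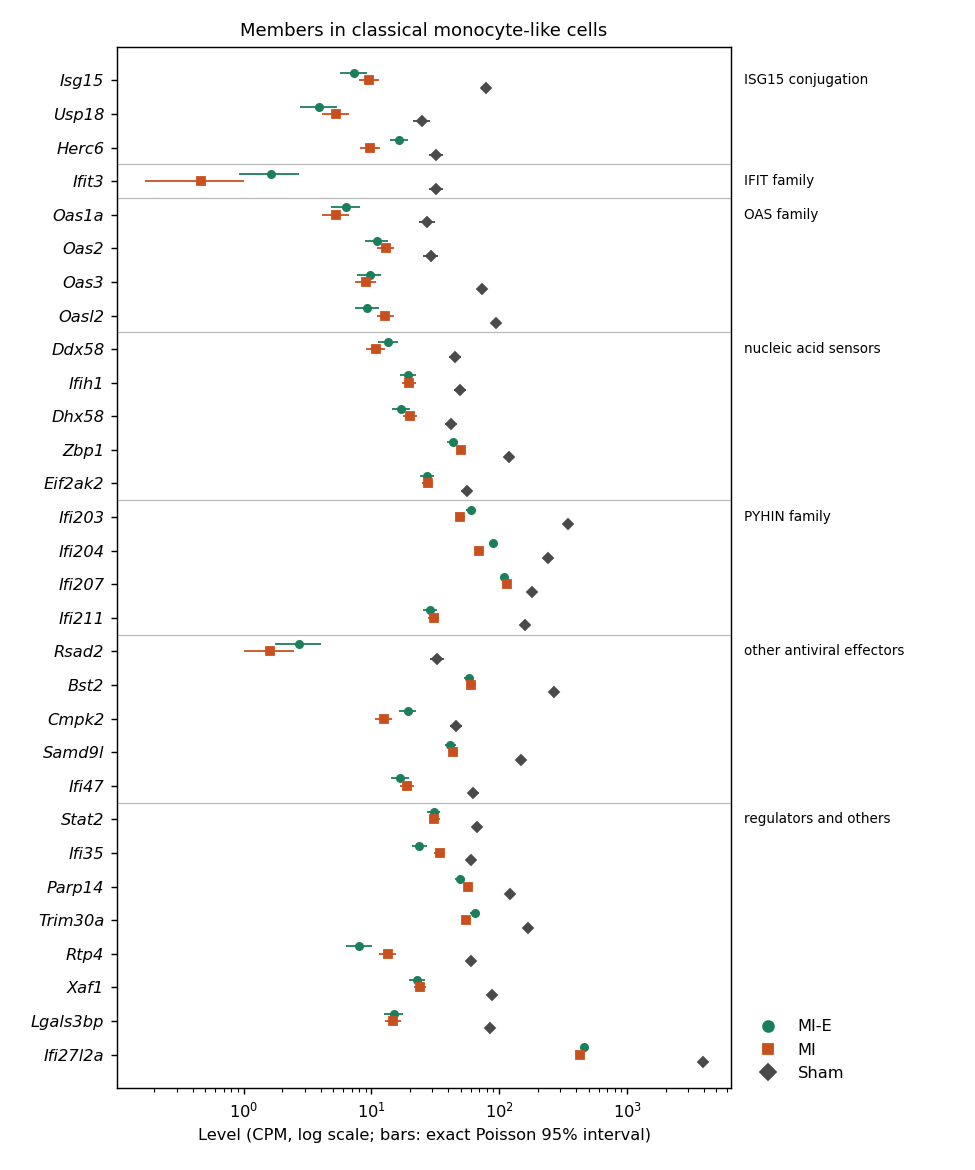
Level of the 30 measured members in classical monocyte-like cells of MI-E, MI and Sham, in CPM on a log axis, with exact Poisson 95% intervals (1 library per group) and grouped by role. The Sham point lies to the right of both others for every gene, from Ifit3 at 32.0 CPM to Ifi27l2a at 3900 CPM in Sham.

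Isg15 is a small ubiquitin-like protein that is attached to other proteins after interferon. It had 7.30 CPM in MI-E, 9.54 CPM in MI and 78.9 CPM in Sham, 10.8-fold lower in MI-E (8.38 to 14.1) and 8.27-fold lower in MI (6.80 to 10.1) than in Sham. Usp18 removes Isg15 and restrains the interferon receptor, and had 3.92 CPM in MI-E, 5.31 in MI and 24.8 in Sham. Herc6, a ligase that attaches Isg15 in mice, had 16.4 CPM in MI-E, 9.77 in MI and 32.1 in Sham, which is 1.95-fold lower in MI-E and 3.29-fold lower in MI. Sham was the highest library for all 3 genes, and Herc6 was higher in MI-E than in MI.

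The IFIT proteins bind foreign RNA and block its translation. Ifit3 was the measured IFIT gene, with 1.63 CPM in MI-E (15 UMIs), 0.461 CPM in MI (6 UMIs) and 32.0 CPM in Sham (233 UMIs). It was 19.6-fold lower in MI-E (11.6 to 35.5) and 69.3-fold lower in MI (31.3 to 191) than in Sham, the largest ratios of the 30 members in both comparisons. The remaining IFIT genes were under the minimum: Ifit1 had 21, 14 and 183 UMIs in MI-E, MI and Sham, and Ifit2 had 10, 6 and 115. Ifit3b, with 1, 1 and 54 UMIs, and Ifit1bl1, with 1, 0 and 56 UMIs, were counted almost only in Sham. Of the 91-base words in the last 500 bases of Ifit3, 6.34% also occur in Ifit3b transcripts, so some Ifit3 reads may match both genes. None of those in the last 500 bases of Ifit3b occur in another gene.

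The oligoadenylate synthetases make a second messenger that activates RNase L, an enzyme that degrades viral RNA. Oas3 had 9.69 CPM in MI-E, 9.07 in MI and 73.5 in Sham, and Oasl2 had 9.26 CPM in MI-E, 12.8 in MI and 94.1 in Sham. Both were at least 7.33-fold lower in MI-E and in MI than in Sham. Oas1a had 6.32 CPM in MI-E, 5.31 in MI and 27.2 in Sham, and Oas2 had 11.002 CPM in MI-E, 12.996 in MI and 29.1 in Sham. Oas1a shares 42.2% of such words with Oas1g, so its value is uncertain. Oasl1 was under the minimum, with 25, 22 and 95 UMIs in MI-E, MI and Sham.

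Sensors of nucleic acid differed less, with a median log2 ratio of −1.34 for MI-E and −1.25 for MI over 5 genes. Ddx58 (RIG-I) had 13.5 CPM in MI-E, 10.8 in MI and 44.8 in Sham. Ifih1 (MDA5) had 19.4 CPM in MI-E, 19.8 in MI and 49.1 in Sham. Dhx58 (LGP2), a helicase that tunes the other RNA sensors, had 16.99 CPM in MI-E, 20.1 in MI and 42.1 in Sham. Zbp1 senses left-handed nucleic acid and had 43.5 CPM in MI-E, 50.2 in MI and 119.5 in Sham. Eif2ak2 (PKR), a kinase that halts translation on binding double-stranded RNA, had 27.3 CPM in MI-E, 27.5 in MI and 55.7 in Sham. All 5 stood between 2.02- and 4.14-fold lower than in Sham.

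The PYHIN genes encode nuclear and cytosolic DNA-binding proteins. Ifi203 had 60.1 CPM in MI-E, 49.6 in MI and 345 in Sham, 5.74-fold lower in MI-E and 6.96-fold lower in MI. Ifi204 had 89.9 CPM in MI-E, 69.7 in MI and 240.3 in Sham. Ifi211 had 28.9 CPM in MI-E, 30.6 in MI and 159 in Sham, and shares 59% of its 3′ words with Ifi205 and Mndal, so it is uncertain. Ifi207 was the member nearest to Sham, with 109.6 CPM in MI-E, 115 in MI and 180.5 in Sham, 1.65-fold and 1.56-fold lower. Ifi203 and Ifi207 thus differed in the size of their ratios, while the ISRE core in their promoters has the same letters, GAAATCGAAA.

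Among the other antiviral effectors, Rsad2 (viperin) makes a chain-terminating nucleotide. It had 2.72 CPM in MI-E, 1.61 in MI and 32.5 in Sham, 11.9-fold lower in MI-E (7.89 to 18.8) and 20.1-fold lower in MI (12.9 to 33.1). Its neighbour Cmpk2, a mitochondrial nucleotide kinase, had 19.2 CPM in MI-E, 12.5 in MI and 46.2 in Sham. Bst2 (tetherin), which holds budding virus at the cell surface, had 57.7 CPM in MI-E, 59.75 in MI and 268 in Sham. Samd9l, a restriction factor that blocks translation, had 41.4 CPM in MI-E, 43.8 in MI and 147 in Sham. Ifi47, an immunity-related GTPase, had 16.7 CPM in MI-E, 19.0 in MI and 62.8 in Sham. Ifi44 was nearly absent, with 0, 1 and 18 UMIs in MI-E, MI and Sham.

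Among the regulators and remaining genes, Ifi27l2a, a small membrane protein of the Ifi27 family, had 457.5 CPM in MI-E, 428 CPM in MI and 3900 CPM in Sham. It was 8.52-fold lower in MI-E (8.25 to 8.81) and 9.10-fold lower in MI (8.84 to 9.37) than in Sham. It gave 35.4% of the summed member UMIs in MI-E, 34.1% in MI and 57.1% in Sham. The sum of the other 36 members was 835 CPM in MI-E, 830 in MI and 2926 in Sham, still 3.51-fold and 3.53-fold lower. Stat2, a subunit of the interferon-activated factor, had 30.7 CPM in MI-E, 31.1 in MI and 67.1 in Sham, and Trim30a, a ring-finger regulator of inflammatory signalling, had 64.6 CPM in MI-E, 55.3 in MI and 167 in Sham. Rtp4, known as a brake on type I interferon responses, had 8.06 CPM in MI-E, 13.4 in MI and 60.2 in Sham. Lgals3bp, a secreted glycoprotein, had 14.9 CPM in MI-E, 14.8 in MI and 85.2 in Sham. Sham was again above both other libraries for each. Xaf1, which promotes cell death, had 22.8 CPM in MI-E, 24.0 in MI and 87.5 in Sham. Parp14, a mono-ADP-ribosyl transferase, had 49.7 CPM in MI-E, 56.7 in MI and 122 in Sham, and Ifi35 had 23.6 CPM in MI-E, 34.2 in MI and 60.1 in Sham, 2.54-fold and 1.76-fold lower. Phf11d was under the minimum, with 16, 21 and 155 UMIs in MI-E, MI and Sham.

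Between MI-E and MI the classical monocyte-like cells differed little. None of the 30 measured members was at least 2-fold lower (0.283% of all genes) and 1, Ifit3, was at least 2-fold higher (0.688% of all genes), on 15 and 6 UMIs. The median log2 ratio of MI-E over MI was −0.04, beside 0.08 for all genes. Counting intervals lay above 1 for 7 members, among them Herc6 (ratio 1.68, interval 1.32 to 2.15) and Cmpk2 (1.54, 1.24 to 1.92). They lay below 1 for 5, among them Rtp4 (0.602, 0.453 to 0.795) and Ifi35 (0.691, 0.585 to 0.814). The share of all genes with such intervals is not given.

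The members with and without an ISRE core overlapped in their ratios. The 14 measured members with a core had a median log2 ratio of −2.16 for MI-E and −2.26 for MI, and the 8 with a promoter window lacking one had −1.87 and −1.81.

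The shares of S100a8 and S100a9 and of haemoglobin moved with these groups too. Whether this RNA came from other cells or from the cells of the gate was not tested. In the classical monocyte-like gate, S100a8 and S100a9 together took 0.852% of UMIs in MI-E, 1.80% in MI and 0.138% in Sham. Haemoglobin took 0.0301% in MI-E, 0.0617% in MI and 0.178% in Sham. Without cells over 1% haemoglobin, 28 members were at least 2-fold lower in each comparison. That cut lies far above these shares, so RNA spread thinly over many cells stays in. It cannot tell the part of such RNA, here or in the gates below. Among cells with under 0.2% S100a8 and S100a9 the count was 26 in each comparison. The log2 ratio of the sum there was −2.12 for MI-E and −2.29 for MI. Over the 17 compared gates, haemoglobin took its highest share in Sham in 16, and S100a8 and S100a9 their lowest share in Sham in 10. The 17 include neutrophil-like gates rich in S100a8 and S100a9 and the erythroblast-like gate rich in haemoglobin. Median depth was 3837 UMIs per cell in MI-E, 4015 in MI and 3524.5 in Sham.

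The lower level was seen in the median cell of the gate as well as in the sum. Each cell was thinned to 1000 UMIs so that depth was equal, which left out 26 MI-E, 14 MI and 5 Sham cells, and the median cell then held 1 member UMI in MI-E, 1 in MI and 6 in Sham. Cells with at least 5 member UMIs made up 4.35% of MI-E, 3.71% of MI and 63.5% of Sham classical monocyte-like cells. A UMI of Ifi27l2a was found in 29.2% of thinned MI-E cells, 31.1% of MI and 85.2% of Sham cells (55.2%, 60.9% and 93.7% before thinning). In early erythroid-like cells, a type with little of this RNA, the thinned share was 0.625% in MI-E, 0.930% in MI and 0% in Sham, where a count of 0 in 163 cells allows a share of up to 1.84%. Before thinning it was 2.44%, 5.51% and 15.6%, at median depths of 14488, 12198 and 17272 UMIs.

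**Figure D2:**
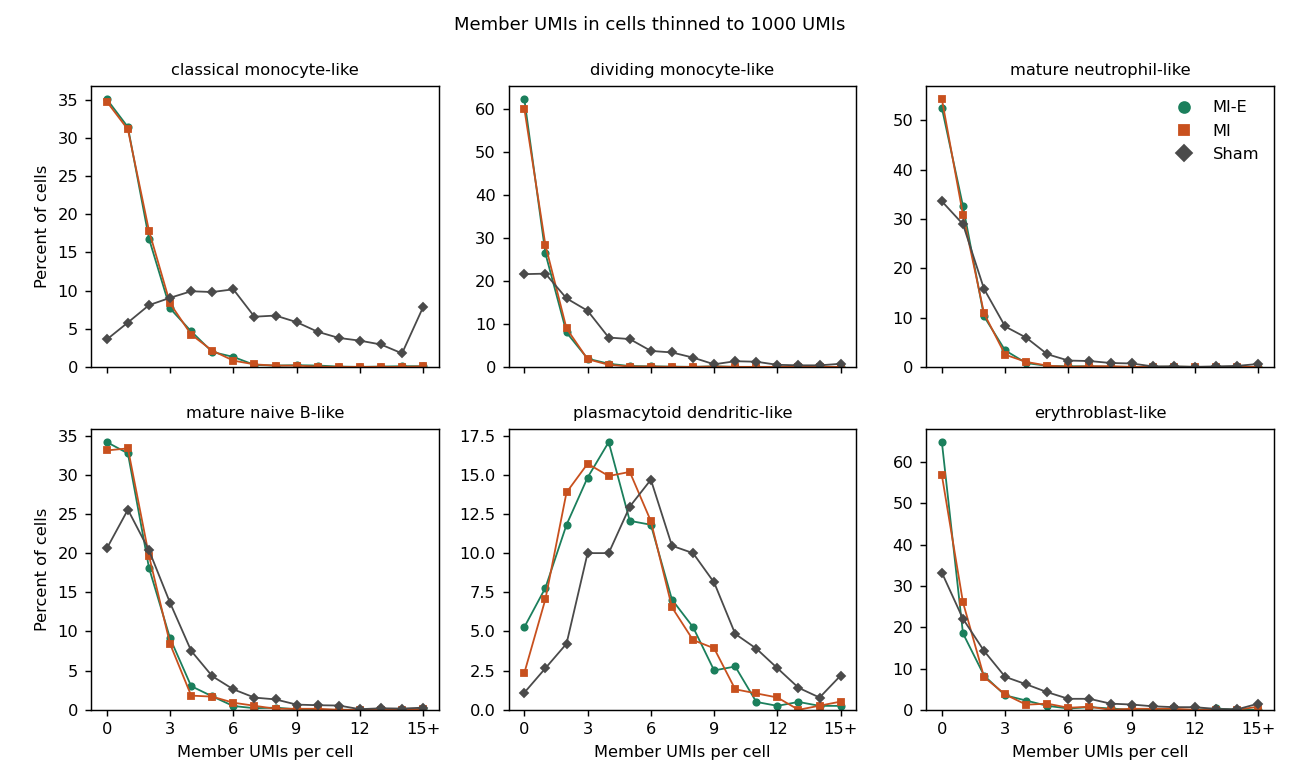
Percent of cells (vertical axis) with each number of member UMIs (horizontal axis, 15 or more pooled) after thinning every cell to 1000 UMIs, for 6 gates and the MI-E, MI and Sham libraries. In classical monocyte-like cells the Sham curve is shifted to the right of both others, with a median of 6 member UMIs against 1 in MI-E and 1 in MI.

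Other genes of the interferon pathway were read in the same gate from lists of ligands, receptors, factors, inhibitors and further targets. None of the 14 ligand genes reached the minimum in classical monocyte-like cells. Over all kept cells, the 13 type I and type III ligand genes together had 2 UMIs in MI-E, 4 in MI and 2 in Sham, and Ifng, which encodes interferon gamma, had 42, 28 and 71. All 7 receptor and kinase genes were measured and none was 2-fold apart from Sham, with median log2 ratios of 0.05 for MI-E and −0.27 for MI. Ifnar1 had 74.1 CPM in MI-E, 79.2 in MI and 74.75 in Sham. Ifnar2 had 145 CPM in MI-E, 130 in MI and 216 in Sham. The receptor genes of the pathway were thus far closer between libraries than the members.

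Among the factors, Irf7, which amplifies interferon production and is itself a target, had 21.1 CPM in MI-E, 25.45 in MI and 142 in Sham, 6.71-fold and 5.57-fold lower. Irf9, the DNA-binding subunit that joins Stat2, had 57.2 CPM in MI-E, 65.8 in MI and 103 in Sham, while Irf3, which is present before any signal, had 42.0 CPM in MI-E, 46.4 in MI and 39.6 in Sham. The inhibitor Socs3, which is induced by several cytokines and blocks their receptors, ran the other way with 54.0 CPM in MI-E, 31.7 in MI and 2.88 in Sham, a log2 ratio of 4.23 for MI-E and 3.46 for MI. Ptpn6 had 341 CPM in MI-E, 359 in MI and 371 in Sham.

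Of 24 further interferon targets, 22 were measured, and 9 in MI-E and 10 in MI were at least 2-fold lower than in Sham, with median log2 ratios of −0.78 and −0.86. Ifitm3, which blocks virus entry in endosomes, had 1917 CPM in MI-E, 1932 in MI and 5277 in Sham. Slfn5 had 121 CPM in MI-E, 123 in MI and 390 in Sham. Close family members did not share these ratios: Ifitm2 had 972 CPM in MI-E, 1269 in MI and 1022 in Sham, and Slfn2 had 508 CPM in MI-E, 464 in MI and 533 in Sham. Of the 6 genes outside the set that are driven above all by interferon gamma, 2 were measured (Ciita and Irf1) and neither was 2-fold apart. Ifi47, a member that is also driven by interferon gamma, was at least 2-fold lower than in Sham in both comparisons. The 5 measured upstream sensors and adaptors, such as Myd88 and Tlr7, had median log2 ratios of −0.10 for MI-E and 0.02 for MI.

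**Figure D3:**
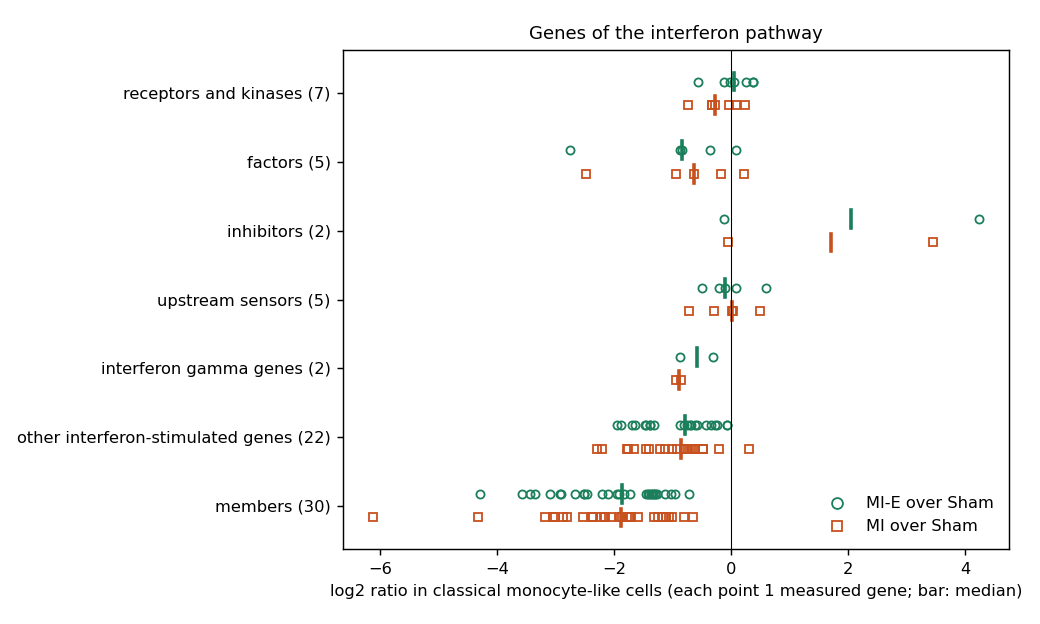
Log2 ratios of measured genes in classical monocyte-like cells, MI-E over Sham (circles) and MI over Sham (squares), by list, with the number of genes plotted in brackets and a bar at the median. The members lie at medians of −1.87 and −1.88, the receptors and kinases at 0.05 and −0.27, and the highest point is the inhibitor Socs3.

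Dividing monocyte-like cells, which add Mki67 and Top2a to the monocyte genes, had a lower member level in every library but nearly the same ratio. The sum was 481 CPM in MI-E, 486 in MI and 2352 in Sham, 4.89-fold (4.77 to 5.02) and 4.84-fold (4.71 to 4.98) lower. S100a8 and S100a9 took 1.20% of UMIs in MI-E, 2.25% in MI and 0.268% in Sham, and haemoglobin took 0.0203% in MI-E, 0.0381% in MI and 0.0739% in Sham. Without cells over 1% haemoglobin the log2 ratio of the sum was −2.30 for MI-E and −2.28 for MI. The part of RNA of other cells was not tested. Of 19 measured members, 14 were at least 2-fold lower in MI-E (1.25% of all genes) and 13 in MI (2.39%). All 19 had intervals below 1 in both, and the share of all genes with such intervals is not given. Ifi27l2a had 67.3 CPM in MI-E, 92.3 in MI and 1229 in Sham, 18.3-fold and 13.3-fold lower. Ifi203 had 46.7 CPM in MI-E, 39.6 in MI and 182 in Sham, and Bst2 had 66.6 CPM in MI-E, 60.1 in MI and 164 in Sham. The members with the smallest ratios were Cmpk2 in MI-E (35.2 CPM against 44.9 CPM in Sham) and Stat2 in MI (16.7 CPM against 24.2 CPM in Sham).

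In Cd209a dendritic-like cells, a monocyte-related type that presents antigen, the sum was 1610 CPM in MI-E, 1941 in MI and 5508 in Sham, 3.42-fold (3.23 to 3.63) and 2.84-fold (2.67 to 3.01) lower. S100a8 and S100a9 took 0.216% of UMIs in MI-E, 1.20% in MI and 0.172% in Sham here, and haemoglobin took 0.0273% in MI-E, 0.0722% in MI and 0.173% in Sham. Without cells over 1% haemoglobin the log2 ratio of the sum was −1.77 for MI-E and −1.50 for MI. The part of RNA of other cells was not tested. Of 33 measured members, 22 were at least 2-fold lower in MI-E (3.46% of all genes) and 19 in MI (3.92%). Ifit3 had the lowest ratio in both, with 5.45 CPM in MI-E, 2.79 in MI and 52.7 in Sham. Ifi27l2a had 344 CPM in MI-E, 296 in MI and 2493 in Sham, while Ifi203 had 187 CPM in MI-E, 281 in MI and 332 in Sham and Samd9l had 122 CPM in MI-E, 133 in MI and 181 in Sham. Ifit1 stood out from the rest, with 33.8 CPM in MI-E, 11.2 in MI and 22.75 in Sham. Its log2 ratio of MI-E over MI was 1.60 with all cells and −2.16 without the 1% of cells with the most member UMIs.

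Plasmacytoid dendritic-like cells, known as the main producers of type I interferon, had a high member level in every library. The sum was 4022 CPM in MI-E, 4204 in MI and 6251 in Sham, 1.55-fold (1.5 to 1.61) and 1.49-fold (1.44 to 1.54) lower. Bst2, a surface marker of this cell type in mice, made up most of it, with 2746 CPM in MI-E, 2656 in MI and 3892 in Sham. Of 19 measured members, 6 were at least 2-fold lower in MI-E (1.5% of all genes) and 3 in MI (2.24%), and the median log2 ratio was −0.61 for MI-E and −0.33 for MI. Ifi27l2a had 309.7 CPM in MI-E, 384 in MI and 1002 in Sham, and Isg15 had 4.48 CPM in MI-E, 27.4 in MI and 40.0 in Sham. Trim30a had 227 CPM in MI-E, 272 in MI and 290.5 in Sham, and Stat2 had 189 CPM in MI-E, 159 in MI and 135 in Sham, higher in both than in Sham. Irf7 had 84.1 CPM in MI-E, 88.04 in MI and 157 in Sham.

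**Figure D4:**
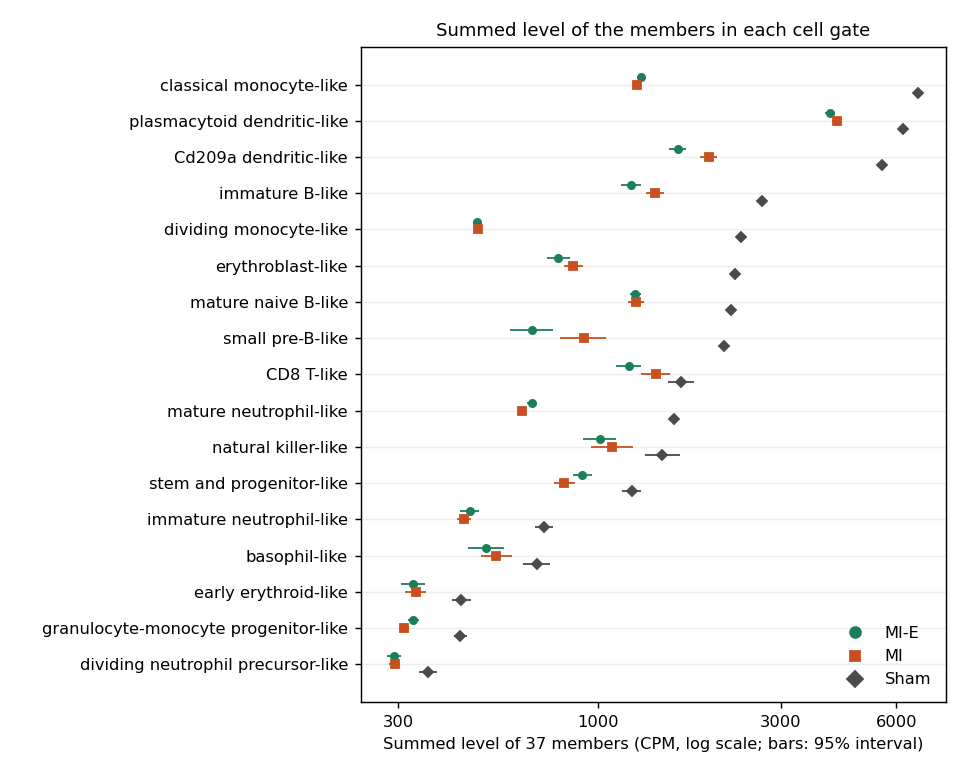
Summed level of the 37 members in the 17 compared gates, in CPM on a log axis, for MI-E, MI and Sham with 95% Poisson intervals (1 library per group), ordered by the Sham level. Sham is the rightmost point in all 17 gates, and the distance is widest in classical monocyte-like cells (1292, 1258 and 6826 CPM in MI-E, MI and Sham).

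Along the neutrophil line the members were compared at 3 stages. In dividing neutrophil precursor-like cells the sum was 293 CPM in MI-E, 294 in MI and 359 in Sham, 1.23-fold and 1.22-fold lower. It was 462 CPM in MI-E, 445 in MI and 722 in Sham in immature neutrophil-like cells, 1.56-fold and 1.62-fold lower. In mature neutrophil-like cells it was 669 CPM in MI-E, 632 in MI and 1579 in Sham, 2.36-fold (2.27 to 2.46) and 2.50-fold (2.40 to 2.60) lower. The size of the ratio thus stood in the order of maturation in both comparisons.

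Of 18 measured members in mature neutrophil-like cells, 9 were at least 2-fold lower in MI-E (2.12% of all genes) and 8 in MI (3.55%). Ifi27l2a had 32.1 CPM in MI-E, 33.4 in MI and 413 in Sham, 12.9-fold and 12.4-fold lower. Rsad2 had 8.55 CPM in MI-E, 7.93 in MI and 70.1 in Sham, and Isg15 had 7.31 CPM in MI-E, 7.31 in MI and 43.3 in Sham. Haemoglobin took 0.0489% of UMIs in MI-E, 0.0816% in MI and 0.279% in Sham in these cells. Without cells over 1% haemoglobin the counts were again 9 and 8, and the part of RNA of other cells was not tested. Not every member was lower to this extent: Samd9l had 204 CPM in MI-E, 178 in MI and 256 in Sham, and Trim30a had 108 CPM in MI-E, 97.1 in MI and 85.9 in Sham. In immature neutrophil-like cells 3 of 14 were at least 2-fold lower in MI-E (1.03%) and 3 in MI (1.96%), with Samd9l at 195, 174 and 189 CPM and Ifi27l2a at 10.5, 18.2 and 119 CPM in MI-E, MI and Sham. In dividing precursors, 1 of 8, Ifi27l2a, was at least 2-fold lower in MI-E (0.381%) and in MI (0.667%), with 7.98, 9.84 and 59.6 CPM in MI-E, MI and Sham.

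Among the B lineage gates, mature naive B-like cells differed mainly through Ifi27l2a. In mature naive B-like cells (2178 MI-E, 1156 MI and 2694 Sham cells) the sum was 1249 CPM in MI-E, 1255 in MI and 2221 in Sham, 1.78-fold (1.71 to 1.85) and 1.77-fold (1.68 to 1.86) lower. Ifi27l2a had 176 CPM in MI-E, 235 in MI and 914 in Sham, 5.18-fold (4.71 to 5.70) and 3.89-fold (3.49 to 4.36) lower. Without it, the sum of the other members was 1073 CPM in MI-E, 1020 in MI and 1307 in Sham, 1.22-fold and 1.28-fold lower. Of 16 measured members, 1 was at least 2-fold lower in MI-E (0.456% of all genes) and 2 in MI (0.671%). Ifi203 had 315 CPM in MI-E, 328 in MI and 377 in Sham, and Samd9l had 229 CPM in MI-E, 197 in MI and 266 in Sham. Haemoglobin moved with the groups here too, at 0.0770% of UMIs in MI-E, 0.130% in MI and 0.306% in Sham. Without cells over 1% haemoglobin the counts were the same, and the part of RNA of other cells was not tested.

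Immature B-like cells had a sum of 1219 CPM in MI-E, 1404 in MI and 2679 in Sham, 2.20-fold and 1.91-fold lower. Of 16 measured members, 4 were at least 2-fold lower in MI-E (2.19%) and 3 in MI (1.66%). Ifi27l2a had 188 CPM in MI-E, 318.5 in MI and 1202 in Sham, and Ifi203 had 275 CPM in MI-E, 291 in MI and 336 in Sham. In small pre-B-like cells the sum was 670 CPM in MI-E, 914 in MI and 2126 in Sham, 3.17-fold (2.78 to 3.64) and 2.33-fold (2.02 to 2.69) lower. These ratios rest on 287 MI-E and 173 MI cells against 1353 Sham cells. S100a8 and S100a9 took 1.39% of UMIs in MI-E, 0.445% in MI and 0.329% in Sham small pre-B-like cells. Haemoglobin took 0.0531% in MI-E, 0.146% in MI and 0.336% in Sham. The part of RNA of other cells in this gate was not tested. Of 14 measured members there, 8 were at least 2-fold lower in MI-E (5.17%) and 6 in MI (7.06%). Ifi27l2a had 131 CPM in MI-E, 231 in MI and 1090 in Sham.

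In CD8 T-like and natural killer-like cells the ratios of the sum lay below 1.5-fold. In CD8 T-like cells the sum was 1200 CPM in MI-E, 1410 in MI and 1644 in Sham, 1.37-fold and 1.17-fold lower. Of 15 measured members, 1 was at least 2-fold lower in MI-E (3.82%) and 2 in MI (4.02%). Ifi27l2a had 136 CPM in MI-E, 182.5 in MI and 380 in Sham, and Ifi203 had 210 CPM in MI-E, 255.5 in MI and 238 in Sham. RNA of other cells moved with the groups in this gate: the B cell genes Cd79a, Cd79b, Igkc and Ighm summed to 382 CPM in MI-E, 555 in MI and 697 in Sham, and haemoglobin took 0.0513% of UMIs in MI-E, 0.0871% in MI and 0.158% in Sham. The part of B cell RNA in these values was not tested. In natural killer-like cells the sum was 1009 CPM in MI-E, 1087 in MI and 1470 in Sham, 1.46-fold and 1.35-fold lower, and 3 of 11 were at least 2-fold lower in MI-E (2.57%) and 3 in MI (3.82%). Bst2 had 34.5 CPM in MI-E, 18.0 in MI and 134 in Sham, and Ifi27l2a had 4.93 CPM in MI-E, 18.0 in MI and 122 in Sham. Ifi203 had 244 CPM in MI-E, 260.5 in MI and 252 in Sham, and Samd9l had 116 CPM in MI-E, 148 in MI and 89.6 in Sham. The same B cell genes summed to 336 CPM in MI-E, 225 in MI and 916 in Sham natural killer-like cells. S100a8, S100a9, Camp and Ngp summed to 12693 CPM in MI-E, 5569 in MI and 1710 in Sham. Haemoglobin took 0.0501% of UMIs in MI-E, 0.103% in MI and 0.283% in Sham. The part of RNA of other cells in this gate was not tested.

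Erythroblast-like cells carried a different pair of leading members. Rsad2 had 373 CPM in MI-E, 304 in MI and 1081 in Sham, 2.90-fold and 3.55-fold lower, and Isg15 had 143 CPM in MI-E, 227 in MI and 589 in Sham, 4.12-fold and 2.59-fold lower. In each library these were the highest levels of both genes among the 17 gates. A UMI of Rsad2 was found in 20.4% of thinned MI-E cells, 19.1% of MI and 49.5% of Sham erythroblast-like cells (35.7%, 36.1% and 69.0% before thinning). In mature naive B-like cells, a type in which Rsad2 was under the minimum, the thinned share was 0.275% in MI-E, 0.129% in MI and 0.663% in Sham. Median depths were 2908.5, 3104.5 and 3399 UMIs in erythroblast-like cells and 1118, 1108.5 and 1404 UMIs in mature naive B-like cells of MI-E, MI and Sham. The sum was 786 CPM in MI-E, 860 in MI and 2269 in Sham, 2.89-fold (2.68 to 3.11) and 2.64-fold (2.48 to 2.80) lower. Of 17 measured members, 10 were at least 2-fold lower in MI-E (1.67% of all genes) and 7 in MI (2.26%). Cmpk2 had 60.0 CPM in MI-E, 62.9 in MI and 64.7 in Sham. The B cell genes Cd79a, Cd79b, Igkc and Ighm summed to 369 CPM in MI-E, 283 in MI and 876 in Sham. S100a8, S100a9, Camp and Ngp ran the other way, with 7096 CPM in MI-E, 13859 in MI and 4160 in Sham. The part of RNA of other cells in this gate was not tested. Haemoglobin took 47.8% of UMIs in MI-E, 44.0% in MI and 58.2% in Sham, and the median of all genes stood at 0.42 for MI-E and 0.45 for MI on the log2 scale, so the members lay lower still against the other genes of the gate.

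Early erythroid-like cells, before haemoglobin, had a sum of 328 CPM in MI-E, 333 in MI and 438 in Sham, 1.34-fold and 1.32-fold lower. Of 12 measured members, 2 were at least 2-fold lower in MI-E (0.328%) and 2 in MI (0.63%). Bst2 had 31.7 CPM in MI-E, 33.6 in MI and 79.3 in Sham, and Lgals3bp had 64.2 CPM in MI-E, 78.2 in MI and 71.2 in Sham. No thinned cell of this gate held 5 member UMIs in any library, which allows a share of up to 1.88% of 160 MI-E, 1.40% of 215 MI and 1.84% of 163 Sham cells.

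In the early progenitors and basophils the sum was between 1.28-fold and 1.5-fold lower than in Sham. In granulocyte-monocyte progenitor-like cells the sum was 328 CPM in MI-E, 311 in MI and 435 in Sham, 1.33-fold and 1.40-fold lower, with 1 of 13 members, Ifi27l2a, at least 2-fold lower in MI-E (0.451%) and in MI (0.81%). Bst2 had 66.5 CPM in MI-E, 70.1 in MI and 81.1 in Sham there. Stem and progenitor-like cells had a sum of 908 CPM in MI-E, 815 in MI and 1223 in Sham, 1.35-fold and 1.5-fold lower. Of 21 members, 4 were at least 2-fold lower in MI-E (2.16%) and 5 in MI (2.65%). Ifi203 had 200 CPM in MI-E, 192 in MI and 239 in Sham, whereas Lgals3bp had 104 CPM in MI-E, 95.9 in MI and 67.4 in Sham. In basophil-like cells the sum was 510 CPM in MI-E, 541 in MI and 690 in Sham, 1.35-fold and 1.28-fold lower, with 2 of 14 at least 2-fold lower in MI-E (4.95%) and 3 in MI (5.53%). S100a8 and S100a9 took 0.201% of UMIs in MI-E, 0.952% in MI and 0.109% in Sham basophil-like cells, haemoglobin took 0.0523% in MI-E, 0.0618% in MI and 0.140% in Sham, and the 4 B cell genes summed to 168 CPM in MI-E, 131 in MI and 516 in Sham. Without cells over 1% haemoglobin the log2 ratio of the sum was −0.41 for MI-E and −0.33 for MI. The part of RNA of other cells was not tested. Samd9l had 83.4 CPM in MI-E, 99.3 in MI and 86.7 in Sham in these cells, and Ifi27l2a had 15.2 CPM in MI-E, 11.8 in MI and 110 in Sham.

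Followed through the gates, Ifi27l2a was measured in 16 of 17 and was at least 2-fold lower with an interval below 1 in all 16, in MI-E (2.79-fold to 24.8-fold) and in MI (2.08-fold to 13.3-fold). Over all kept cells Ifi27l2a had 111 CPM in MI-E, 120 in MI and 1039 in Sham. RNA of other cells inside a gate would carry this difference, and its part in gates with low levels was not tested. Bst2 was lower in all 15 gates where it was measured, at least 2-fold in 10 for MI-E and in 8 for MI. Since a gene can pass the minimum through Sham alone, gates where the mean of MI-E and MI reached 10 CPM without Sham were also read. Ifi27l2a was at least 2-fold lower in all 13 such gates in both comparisons, and Bst2 in 8 of 13 for MI-E and 6 for MI. Isg15 was at least 2-fold lower in 3 of 4 for MI-E and 2 for MI. Rsad2 was at least 2-fold lower in 1 of 2, erythroblast-like cells, in both comparisons, and Ifit3 had no such gate. Samd9l was measured in every compared gate and was at least 2-fold lower in 4 for MI-E and 3 for MI, and Stat2 in 1 of 15 for both.

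**Figure D5:**
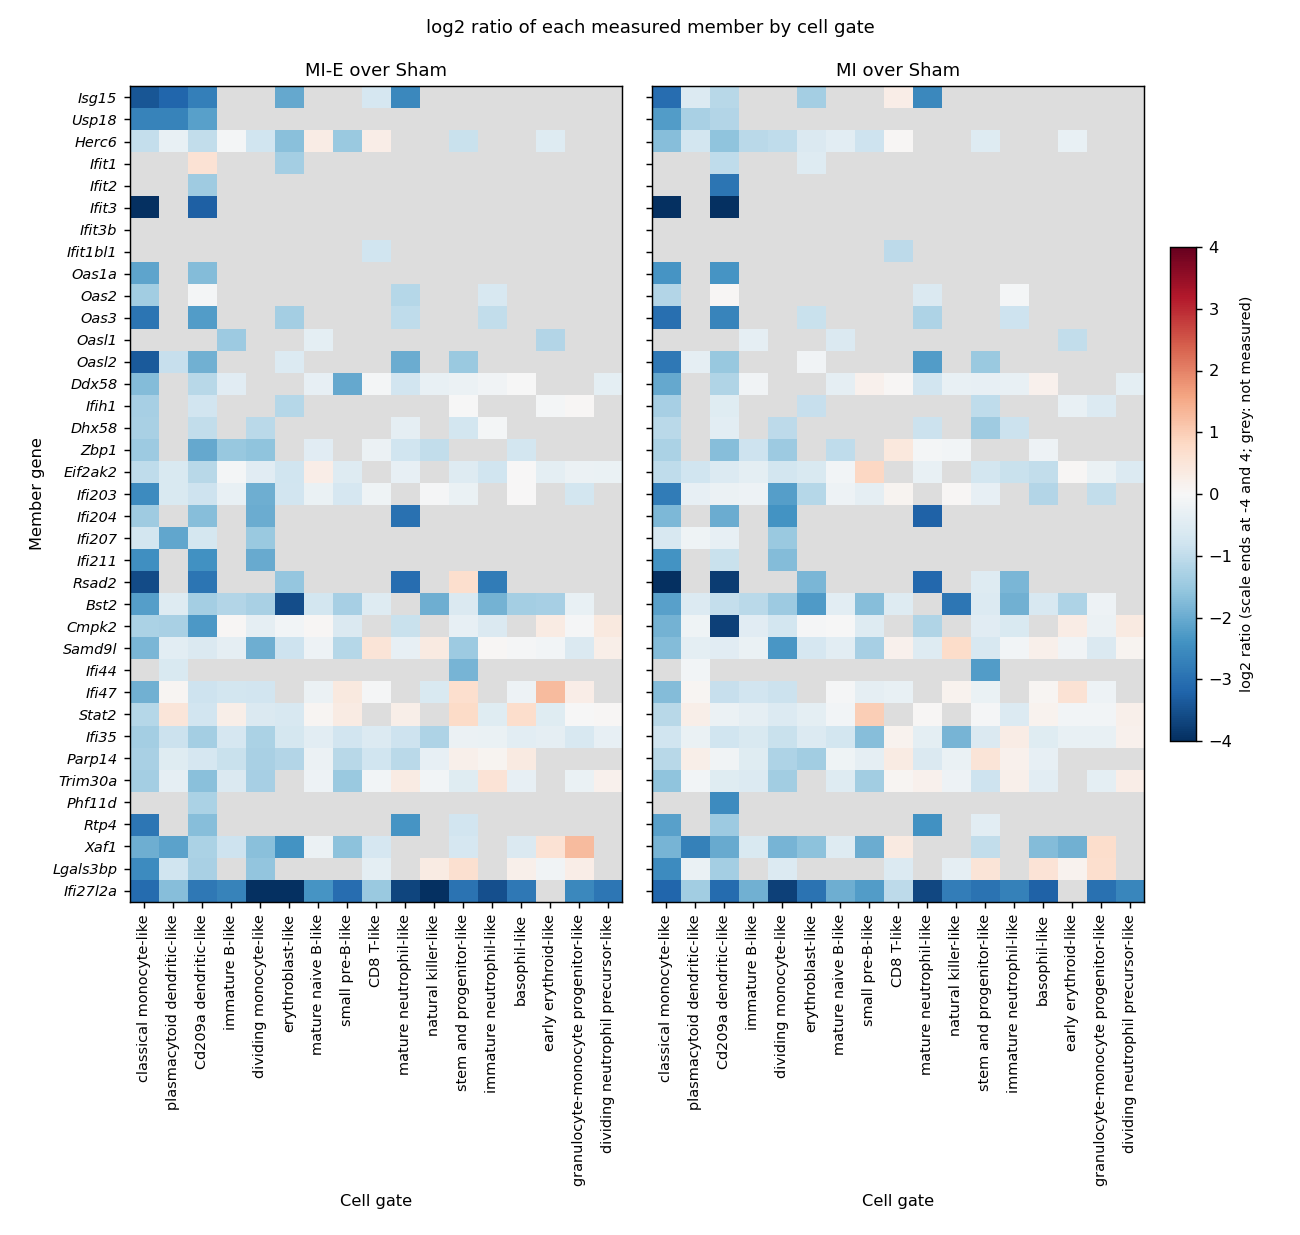
Log2 ratio of each measured member (rows) in each compared gate (columns, ordered by the Sham level of the sum), for MI-E over Sham and MI over Sham, with blue for lower, red for higher and grey where the member was under the minimum. The row of Ifi27l2a is blue in all 16 gates where it was measured, and the classical monocyte-like column is blue throughout.

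Summed over gates, the member level was lower than in Sham in all 17, in MI-E and in MI. The members were lower in MI-E than in MI in 12 of 17 gates, but many of these differences were small: of 205 values recomputed under other settings for this comparison, 20 had the other sign, among them classical monocyte-like cells under both other scalings. Over all gated cells the level was 697 CPM in MI-E, 678 in MI and 2587 in Sham, 3.71-fold and 3.82-fold lower. With the same mix of gates given to every library it was 758 CPM in MI-E, 768 in MI and 2366 in Sham, 3.12-fold and 3.08-fold lower.

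In 5 further gates, cells were too few for a comparison and levels alone are given. Non-classical monocyte-like cells (60 MI-E, 17 MI and 118 Sham) had a sum of 1003 CPM in MI-E (847 to 1179), 1697 in MI (1413 to 2022) and 5338 in Sham (5098 to 5586), and Ifi27l2a stood at 213, 530 and 2981 CPM. Macrophage-like cells had 2273 CPM in MI-E (2075 to 2485), 1403 in MI (1290 to 1524) and 4112 in Sham (3893 to 4340). CD4 T-like cells (51 MI-E, 61 MI and 31 Sham) had 1696 CPM in MI-E, 2094 in MI and 5005 in Sham. Of these sums, Ifi27l2a alone gave 427 CPM in MI-E, 656 in MI and 3240 in Sham. Pro-B-like cells had 1379 CPM in MI-E, 1186 in MI and 1360 in Sham, with overlapping intervals, and large pre-B-like cells had 522 CPM in MI-E, 1107 in MI and 1012 in Sham.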

How the data were processed

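Bone marrow cells were profiled with the 10x Genomics Single Cell 3′ v3.1 kit and 150 bp paired reads on a NovaSeq instrument, per the labels' protocols. Each library came as 1 table of UMI counts by gene and cell barcode that the authors deposited, made with Cell Ranger 5.0.1 on mm10 per the submitters' processing notes. The annotation release and the handling of reads that match several genes are not given in the sources used here. A 3′ UMI count tallies transcript ends and is not scaled by gene length.

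The cell filter asked for 300 genes and 500 UMIs or more and for no more than 10% of UMIs from mitochondrial genes, which left 22506 of 22857 MI-E, 23455 of 23810 MI and 25053 of 25721 Sham barcodes. Likely doublets, scored within a library by their likeness to simulated ones (2 for each barcode), were removed (13.1%, 12.6% and 14.2% of MI-E, MI and Sham cells). Gates used marker genes that are no members, and a cell that met more than 1 gate was left out. UMIs were summed per gate and library, and the check lists named in the text were not used in the gates. Groups came from the treatment labels, with 1 library each, so no test was made. A gene was measured with a mean of at least 10 CPM and 30 UMIs in all over the 3 libraries of a gate, and background percents are over all such genes. A share of 0 is given with a limit of 3 counts.

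The members, the lists and the gates were chosen with earlier results of these data known. Some genes of the lists are not reported here. The text gives every measured member in classical monocyte-like cells. In other gates it draws on the 4 members with the highest mean CPM and those with the lowest and highest ratio in each comparison, and it follows Ifi27l2a, Isg15, Bst2, Rsad2 and Ifit3 through the gates. Samd9l, Stat2, Ifi203, Trim30a and Cmpk2 were also named after their values were seen. Sequences came from RefSeq (GRCm38.p6) and positions from GENCODE M21. Alternatives covered scaling (median of ratios, and TMM from edgeR 4.0.16), doublets, cell filters, thinning to 1000 UMIs, gate settings, equal weight of cells, haemoglobin-rich cells, the top 1% of cells and the minimum level. The limit of 0.2% S100a8 and S100a9 was added after seeing the data. The procedure was tested on simulated data. The work used scanpy 1.11.5, scipy 1.17.1, numpy 2.4.6, pandas 2.3.3, matplotlib 3.10.9 and Python 3.11.15.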

Additional observations from a re-analysis of the deposited data

Results flagged for a closer look

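Ifi47 and Xaf1 each ran in opposite directions in different gates when MI-E was set against Sham. In early erythroid-like cells Ifi47 was higher in MI-E, with 18.8 CPM in MI-E and 7.78 CPM in Sham, a log2 ratio of 1.27 (ratio 2.42, counting interval 1.41 to 4.28). Its counting interval also lay above 1 in stem and progenitor-like cells, with 91.8 CPM in MI-E and 58.1 CPM in Sham (ratio 1.58, 1.14 to 2.22), and in granulocyte-monocyte progenitor-like cells, with 38.4 CPM in MI-E and 32.2 CPM in Sham (ratio 1.19). In classical monocyte-like cells it was lower in MI-E, with 16.7 CPM in MI-E and 62.8 CPM in Sham, a log2 ratio of −1.91.

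Xaf1 was higher in MI-E in granulocyte-monocyte progenitor-like cells, with 16.9 CPM in MI-E and 7.06 CPM in Sham, a log2 ratio of 1.26 (ratio 2.40, 1.70 to 3.45). In early erythroid-like cells it had 29.1 CPM in MI-E and 19.6 CPM in Sham (ratio 1.48, 1.019 to 2.163). Xaf1 was 3.82-fold lower in MI than in Sham there. It was at least 2-fold lower in MI-E in 6 other gates, with log2 ratios between −2.39 and −1.27. For MI-E over MI, counting intervals lay above 1 for both genes in early erythroid-like and granulocyte-monocyte progenitor-like cells. For Ifi47 this also held in stem and progenitor-like cells. For MI over Sham, the interval lay above 1 only for Xaf1 in granulocyte-monocyte progenitor-like cells. With 1 library per group neither difference between gates was tested.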

How the results depend on the processing

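In classical monocyte-like cells, none of the 390 recomputed ratios of the 30 members lay above 1 in MI-E or in MI against Sham. The count of members at least 2-fold lower was 26 to 35 under the alternatives for MI-E (28 with the settings of the text). For MI it was 25 to 35 (28). The exception was a minimum of 50 CPM, where fewer genes were counted and it was 9 for each. Shares of all genes under the alternatives are not given. The log2 ratio of the sum (−2.40 for MI-E and −2.44 for MI) was −2.37 and −2.39 with doublets kept and −2.31 and −2.34 with gates set on thinned cells. For MI-E it was −2.50 and −2.48 under median-of-ratios and TMM scaling, and for MI it was −2.41 with equal weight of cells. Among cells with under 0.2% S100a8 and S100a9 it was −2.12 and −2.29. MI-E over MI (0.04) was −0.036 and −0.029 under those scalings and 0.16 in that subset.

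With no minimum level, the count in mature neutrophil-like cells was 25 for MI-E (9) and 22 for MI (8). It was 11 (1) and 9 (2) in mature naive B-like cells, and 12 for MI (7) in erythroblast-like cells. Genes of few UMIs enter these counts, and the share of all genes without the minimum is not given. With a minimum of 50 CPM the count was 2 and 3 in mature neutrophil-like cells and 1 for MI in mature naive B-like cells. In erythroblast-like cells it was 2 and 2 for MI-E (10) and MI. In mature naive B-like cells the count was 3 for MI-E when the first gate was kept. For MI there it was 4 under the stricter cell filter and 1 with doublets kept, 1 more marker UMI, equal weight of cells or the top 1% of cells left out. In erythroblast-like cells it was 12 and 11 for MI under median-of-ratios and TMM scaling. TMM shifted all log2 ratios by −0.44 for MI-E over Sham in that gate and by 0.13 for MI over Sham in mature neutrophil-like cells. The log2 ratio of Ifit1 in MI-E over MI in Cd209a dendritic-like cells (1.60) was −2.16 without the top 1% of cells, and that of Ddx58 in small pre-B-like cells (−2.23) was 0.036 under the stricter filter. Against Sham the sum was lower in all 205 recomputed values for MI and all but 1 for MI-E, early erythroid-like cells after thinning. The causes of these shifts were not tested. No paired analysis was possible because each group has 1 library. Gates of under 300 cells in a library and members of few UMIs set the precision, and the spread between animals is unknown.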
